A study of Homo sapiens with 6 samples.

Results

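The integrated stress response and its amino acid programme were followed in NCI-H295R cells, a steroid-producing line derived from a human adrenocortical carcinoma. Of the 6 RNA libraries of the series, 3 came from cells transduced with a lentiviral shRNA against TPD52 (shTPD52) and 3 from cells transduced with a lentiviral shRNA that targets no gene (shCtrl). The growth medium (DMEM/F12 with fetal serum and an insulin, transferrin and selenium supplement) and the viral transduction are common to both groups. The labels state neither how many hairpins against TPD52 were used nor the time after transduction. They do not say whether replicates were separate cultures, and the p-values here therefore reflect a spread among libraries that might be technical only. The 40 genes were taken by name, with no threshold on their values, from the 34869 genes of the deposited table. Each of the 40 was found, and 38 had an average of 1 FPKM or more across the libraries, a filter that 12782 genes passed in all. NUPR1 and STC2 lay under it. FPKM is the number of reads scaled to gene length and to library size.

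When uncharged tRNA, unfolded protein, haem shortage or viral RNA activates one of the kinases of eIF2 alpha, general translation slows while the mRNA of the transcription factor ATF4 is translated more. ATF4, often paired with a C/EBP protein, raises genes that make serine, glycine, asparagine and proline, that import amino acids and that charge tRNA. Its target DDIT3 (CHOP) is a further transcription factor, and TRIB3, PPP1R15A and SESN2 feed back on the response or on mTORC1. Since ATF4 is set largely by translation, the RNA of its targets is the usual readout of its activity in an RNA table.

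ATF4 and C/EBP dimers bind a composite element with a core often written TGATGNAA, where N is any base. The promoters of the list are shown first because these letters do not depend on the expression values. The list was itself assembled as ATF4 targets and related genes, so its share of the element may reflect that choice. RefSeq promoter windows on GRCh38.p14, each from 250 bases before to 50 bases after a gene's start, were matched by symbol for 33 of the 40 genes. EIF4EBP1, NUPR1, PSPH, PYCR1, SHMT2, SLC7A11 and YARS1 had no match. The core, searched on both strands, stood in at least 1 window of 15 of the 33 genes (45.5%). Over all genes of that promoter table it stood in 1217 of 27305 (4.46%), and over those that were tested for expression here in 233 of 9184 (2.54%). Counted per window, 15 of 51 windows of the listed genes held it (29.4%), against 1270 of 35116 windows in all (3.62%). With C at the free position, TGATGCAA, it stood in 10 of the 33 genes (30.3%), against 1.08% of all genes of the table. A match describes the letters and is not a binding site. The element is printed for all 15 genes, 5′ to 3′ on the gene's own strand with 11 bases on each side, or fewer where the window ends. Capitals mark the core, which reads TTNCATCA where it lies on the opposite strand. The first 5 genes fell in the comparison of shTPD52 with shCtrl, and the other 10, ordered from the lowest to the highest fitted change, did not pass.
ASNS: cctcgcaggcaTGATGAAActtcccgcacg
AARS1: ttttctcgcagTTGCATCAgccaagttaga
SLC1A5: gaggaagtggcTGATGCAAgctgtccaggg
IARS1: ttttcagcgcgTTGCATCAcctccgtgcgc
MARS1: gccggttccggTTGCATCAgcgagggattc
ATF3: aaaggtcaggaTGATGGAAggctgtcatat
SLC7A1: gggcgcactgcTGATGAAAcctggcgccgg
NARS1: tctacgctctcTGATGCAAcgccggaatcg
CEBPG: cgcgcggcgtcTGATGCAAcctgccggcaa
CARS1: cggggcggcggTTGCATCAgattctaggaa
SLC3A2: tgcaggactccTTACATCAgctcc
CHAC1: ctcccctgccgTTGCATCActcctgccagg
SLC1A4: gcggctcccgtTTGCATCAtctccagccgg
GARS1: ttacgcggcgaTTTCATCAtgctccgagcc
TARS1: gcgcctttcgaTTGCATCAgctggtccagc
The core of the asparagine synthetase gene ASNS began at -68 bases from the annotated start, and that of the alanyl-tRNA synthetase gene AARS1 at -187 bases. In the methionyl and isoleucyl synthetase genes MARS1 and IARS1 it began at -4 and -13 bases. In the threonyl synthetase gene TARS1 it began 2 bases after the start. Not every window lies at the outermost start of its gene in GENCODE release 29. On the plus strand, the MARS1 window began at 57487818 and the gene at 57475445, and the SLC3A2 window at 62881449 and the gene at 62856102. On the minus strand, the SLC1A5 window reached 46785064 and the gene 46788594. Which start was in use in these cells was not tested. The 250 bases before the start follow for ASNS (chr7:97872409-97872658, minus strand), the gene with the lowest fitted change of the list, and for AARS1 (chr16:70289507-70289756, minus strand), the synthetase with the lowest one.
ASNS: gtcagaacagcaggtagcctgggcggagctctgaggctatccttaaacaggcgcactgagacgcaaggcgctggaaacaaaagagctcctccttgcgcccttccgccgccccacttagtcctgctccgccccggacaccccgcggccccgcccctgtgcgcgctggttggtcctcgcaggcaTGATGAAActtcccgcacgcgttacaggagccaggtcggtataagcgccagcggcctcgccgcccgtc
AARS1: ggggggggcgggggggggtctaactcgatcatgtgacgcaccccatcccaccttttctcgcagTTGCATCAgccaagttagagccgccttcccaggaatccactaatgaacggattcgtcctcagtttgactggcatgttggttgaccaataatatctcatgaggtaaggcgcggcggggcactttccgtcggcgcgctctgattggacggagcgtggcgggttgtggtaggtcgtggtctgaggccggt
Of the 8 genes that fell 5 held the core, and of the other 25 matched genes 10 held it, of which 7 had a negative and 3 a positive fitted change on the deposited FPKM. The letters were thus found in genes that fell and in genes that did not pass.

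The knockdown was seen in its target. TPD52 stood at 0.63, 0.635 and 0.655 FPKM in shTPD52 replicates 1, 2 and 3, against 1.42, 1.18 and 1.29 FPKM in shCtrl replicates 1, 2 and 3, and fell by 0.65 log2 units (SE 0.14, adjusted limma p 0.0218) when added to the fit. Library totals worked back from the steps of low FPKM values ran from 29544372 to 38396624 reads. All 9 adrenocortical markers looked up averaged at least 1 FPKM, with a summed level of 455 to 465 FPKM in shTPD52 and 399 to 422 FPKM in shCtrl. Of these markers 4 were higher in shTPD52 by the same test and 0 lower, beside 5.63% higher and 12.7% lower among all tested genes. Named after their values were seen, these included the steroid enzyme gene HSD3B2 with 21.3 ± 1.05 FPKM in shTPD52 and 5.8 ± 0.769 FPKM in shCtrl and the ACTH receptor gene MC2R (log2 change 1.47, SE 0.14, adjusted limma p 0.00378). CYP17A1, also a steroid enzyme gene, went the other way without overlap and did not pass (log2 change -0.36, SE 0.11, adjusted limma p 0.0565). The log2 change was -0.0094 for STAR and 0.034 for NR5A1, and over all 9 markers it was positive in 7 and negative in 2. The part of these changes in the results was not tested. Of 14 markers of fibroblasts, leukocytes, endothelium, chromaffin cells and epithelium, 1 averaged at least 1 FPKM (EPCAM) and 0 were at 0 in every library. Their summed level was 5.02 to 6.31 FPKM in shTPD52 and 4.57 to 4.67 FPKM in shCtrl, and their part in the results was not tested. Mitochondrially encoded genes took 22.1% ± 2.37 of the reads in shTPD52 and 17.9% ± 0.527 in shCtrl (SD, n = 3 each), and over all tested genes the median log2 fold change was -0.11. The part of the mitochondrial share in the results was not tested. In bulk RNA, fewer cells in a given state and less RNA per cell cannot be told apart.

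With TPD52 knocked down, 8 of the 38 tested genes fell, 1 rose and 29 did not pass. Those that fell were the amino acid transporter genes SLC7A5 and SLC1A5, the synthetase genes AARS1, MARS1 and IARS1, ASNS, the mitochondrial folate enzyme gene MTHFD2 and GDF15, which encodes a secreted stress protein. Of these 8, ASNS passed the filter of 1 FPKM only through its level in shCtrl. EPRS1, the glutamyl-prolyl synthetase gene, rose. ATF4, DDIT3 and the other 8 tested factors and feedback genes did not pass. Tests were made with limma on log2(FPKM + 0.5), with Benjamini-Hochberg adjustment over all 12782 genes and a threshold of 0.05, and changes on that scale understate those of genes with low values. Of all tested genes 18.3% passed, 12.7% as lower and 5.63% as higher. Of the listed genes 23.7% passed, 21.1% as lower and 2.63% as higher. Their median log2 fold change was -0.17. The fitted change was negative, at any p, in 31 of 38 listed genes (81.6%), against 63.2% of all tested genes. The 2 groups did not overlap in 22 of 38 listed genes (57.9%), against 42% of all tested genes. In 20 of these the 3 shTPD52 libraries lay below the 3 of shCtrl (52.6%, against 28.3% of all), and in EPRS1 and TARS1 above them (5.26%, against 13.8% of all). These shares describe the list and carry no test.

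**Figure D1:**
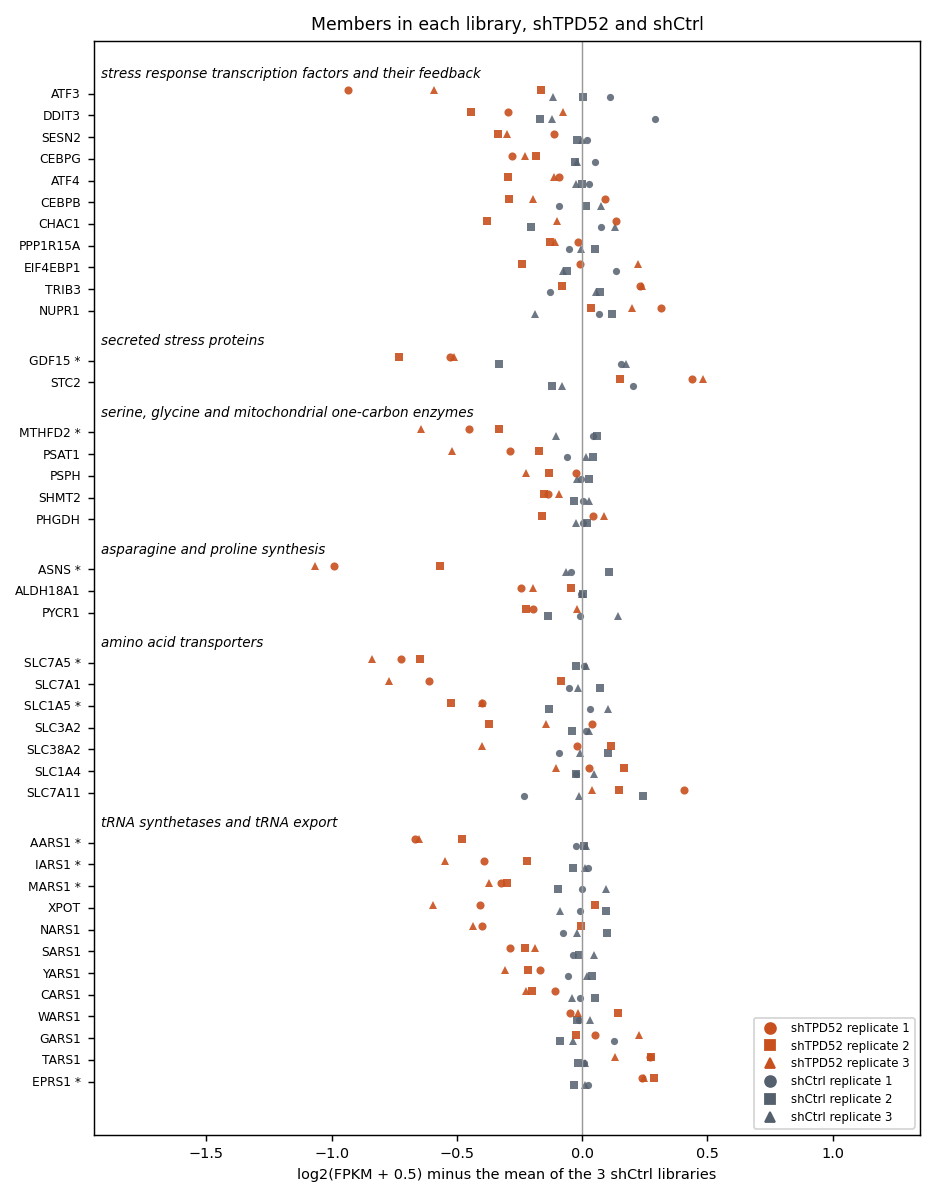
Each of the 40 genes in each library, as log2(FPKM + 0.5) minus the mean of the 3 shCtrl libraries (x axis), grouped by role and ordered by fitted change. Orange is shTPD52, grey is shCtrl, the symbol shape is the replicate number, and an asterisk marks a gene with an adjusted p under 0.05; ASNS, SLC7A5 and AARS1 lie far to the left in all 3 shTPD52 libraries, and EPRS1 and TARS1 lie to the right in all 3.

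The factors that run the response did not pass on the deposited FPKM. ATF4 (ENSG00000128272) was at 148, 129 and 146 FPKM in shTPD52, against 161, 158 and 155 FPKM in shCtrl. Each knockdown library was below each control library (log2 change -0.17, SE 0.08, adjusted limma p 0.164). It passed as lower with quantile normalization (-0.28 with an adjusted limma p of 0.0274) and was at -0.044 with an adjusted limma p of 0.796 with median-ratio scaling. DDIT3, the pro-apoptotic factor CHOP, was at 14.6, 13.1 and 17.1 FPKM in shTPD52, against 22.2, 16 and 16.5 FPKM in shCtrl. Its groups overlapped (log2 change -0.27, SE 0.15, adjusted limma p 0.206). In GENCODE release 29, 27.2% of the exon bases of DDIT3 lie over exons of MARS1 on the opposite strand, and because the strand setting of the counting is unknown, reads of the 2 genes may not be told apart there. ATF3, a stress-induced factor that follows ATF4, was at 1.04, 2.12 and 1.45 FPKM in shTPD52, against 2.68, 2.44 and 2.21 FPKM in shCtrl. All 3 knockdown libraries were lower, replicate 2 close to the control range (log2 change -0.56, SE 0.20, adjusted limma p 0.0782).

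C/EBP beta and gamma are partners of ATF4. CEBPG averaged 11.5 ± 0.39 FPKM in shTPD52 and 13.5 ± 0.44 FPKM in shCtrl (SD, n = 3 each), without overlap (log2 change -0.23, SE 0.078, adjusted limma p 0.0713). CEBPB averaged 13.7 ± 2.02 FPKM in shTPD52 and 15 ± 0.899 FPKM in shCtrl, with overlapping groups (log2 change -0.13, SE 0.11, adjusted limma p 0.416). Of the feedback genes, SESN2, whose product restrains mTORC1, averaged 9.56 ± 0.844 FPKM in shTPD52 and 11.4 ± 0.16 FPKM in shCtrl without overlap (log2 change -0.25, SE 0.089, adjusted limma p 0.0843). PPP1R15A (GADD34), which helps return eIF2 alpha to its unphosphorylated form, averaged 30.5 ± 1.32 FPKM in shTPD52 and 32.3 ± 1.18 FPKM in shCtrl. TRIB3, a pseudokinase that restrains ATF4 and AKT, averaged 5.94 ± 0.777 FPKM in shTPD52 and 5.36 ± 0.439 FPKM in shCtrl. CHAC1, which degrades glutathione, averaged 2.87 ± 0.597 FPKM in shTPD52 and 3.13 ± 0.436 FPKM in shCtrl. EIF4EBP1, the translation repressor 4E-BP1, was at 100.2, 85.2 and 118 FPKM in shTPD52, against 111, 96.6 and 95.6 FPKM in shCtrl. The groups of these 4 genes overlapped, and their adjusted limma p ran from 0.426 for PPP1R15A to 0.968 for EIF4EBP1. The signs of PPP1R15A and EIF4EBP1 turned with median-ratio scaling and that of CHAC1 with quantile normalization. NUPR1, a stress-induced chromatin protein under the filter, averaged 0.813 ± 0.126 FPKM in shTPD52 and 0.659 ± 0.129 FPKM in shCtrl and did not pass when added to the fit (log2 change 0.18, SE 0.17, adjusted limma p 0.441).

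Both secreted proteins of the list are hormones induced by stress. GDF15, which acts on appetite, was at 1.77, 1.47 and 1.8 FPKM in shTPD52, against 3.15, 2.1 and 3.2 FPKM in shCtrl. All knockdown libraries were lower, and shCtrl replicate 2 was nearest to them. GDF15 fell by 0.59 log2 units (SE 0.16, adjusted limma p 0.0441), to 0.597 times the mean of shCtrl. With median-ratio scaling it was at -0.49 with an adjusted limma p of 0.0851 and with quantile normalization at -0.46 with an adjusted limma p of 0.113, so it then missed the threshold. STC2, under the filter, was at 0.408, 0.244 and 0.437 FPKM in shTPD52, against 0.271, 0.116 and 0.134 FPKM in shCtrl. Its groups overlapped, and it did not pass when added to the fit (log2 change 0.36, SE 0.20, adjusted limma p 0.227).

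Serine is made from a glycolytic intermediate by PHGDH, PSAT1 and PSPH, and SHMT2 and MTHFD2 pass its carbon into mitochondrial folate. In this route 1 of 5 genes fell and 4 did not pass, where 12.7% of all tested genes were lower and 5.63% higher. MTHFD2 (ENSG00000065911, GRCh38 chromosome 2, 74198562 to 74217565, plus strand) was at 4.28, 4.7 and 3.68 FPKM in shTPD52, against 6.24, 6.32 and 5.58 FPKM in shCtrl. The groups were clearly apart, and MTHFD2 fell by 0.48 log2 units (SE 0.11, adjusted limma p 0.0289), to 0.698 times the mean of shCtrl. Its processed copy MTHFD2P1 averaged 2.81 FPKM in shTPD52 and 2.98 FPKM in shCtrl, and reads may be exchanged with it. PSAT1 was at 39.4, 42.7 and 33.4 FPKM in shTPD52, against 46.2, 49.7 and 48.8 FPKM in shCtrl. It was lower in 3 of 3 libraries but missed the threshold (log2 change -0.33, SE 0.10, adjusted limma p 0.0573), and it passed after the correction for length and GC content (-0.40 with an adjusted limma p of 0.0219). SHMT2 averaged 68.9 ± 1.48 FPKM in shTPD52 and 75.3 ± 1.59 FPKM in shCtrl, and PSPH averaged 13.7 ± 0.977 FPKM in shTPD52 and 15 ± 0.255 FPKM in shCtrl. The groups of neither gene overlapped, and neither passed (adjusted limma p 0.2 for SHMT2 and 0.285 for PSPH). The sign of SHMT2 turned after the correction for length and GC content. PHGDH, the entry enzyme, averaged 28.6 ± 2.6 FPKM in shTPD52 and 28.7 ± 0.448 FPKM in shCtrl with overlap (log2 change -0.0095, SE 0.087, adjusted limma p 0.947), and its sign turned with median-ratio scaling, with quantile normalization and after the length and GC correction. The ratio of MTHFD2 to SHMT2 FPKM within a library was 0.0614 ± 0.00864 in shTPD52 and 0.0804 ± 0.00688 in shCtrl (SD, n = 3 each, two-sided exact permutation p = 0.1, the smallest that 3 against 3 allow).

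ASNS makes asparagine from aspartate and glutamine and is a classical ATF4 target. ASNS (ENSG00000070669, GRCh38 chromosome 7, 97852118 to 97872542, minus strand) was at 0.595, 0.969 and 0.537 FPKM in shTPD52, against 1.61, 1.84 and 1.58 FPKM in shCtrl. All 3 knockdown libraries were well below the controls, replicate 2 least so. ASNS fell by 0.87 log2 units (SE 0.17, adjusted limma p 0.0184), to 0.418 times the mean of shCtrl. It passed the filter of 1 FPKM only through shCtrl, since its mean was 0.7 ± 0.234 FPKM in shTPD52 and 1.68 ± 0.145 FPKM in shCtrl, and in the fit without a filter its adjusted limma p was 0.0678. Its level is low and rested on about 78 to 157 reads in a shTPD52 library and 246 to 259 in a shCtrl library. In GENCODE release 29, 44.6% of its exon bases lie over a second gene on the same strand (ENSG00000284707), which averaged 0.225 FPKM in shTPD52 and 0.206 FPKM in shCtrl. The processed copy ASNSP1 averaged 1.45 ± 0.189 FPKM in shTPD52 and 1.48 ± 0.138 FPKM in shCtrl (log2 change -0.025, adjusted limma p 0.909), and an exchange of reads with ASNS was not tested. In proline synthesis, ALDH18A1 averaged 20.8 ± 1.56 FPKM in shTPD52 and 23.3 ± 0.0869 FPKM in shCtrl without overlap, and PYCR1 averaged 13.7 ± 1.1 FPKM in shTPD52 and 15.2 ± 1.53 FPKM in shCtrl with overlap. Neither passed (adjusted limma p 0.177 for ALDH18A1 and 0.318 for PYCR1).

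**Figure D2:**
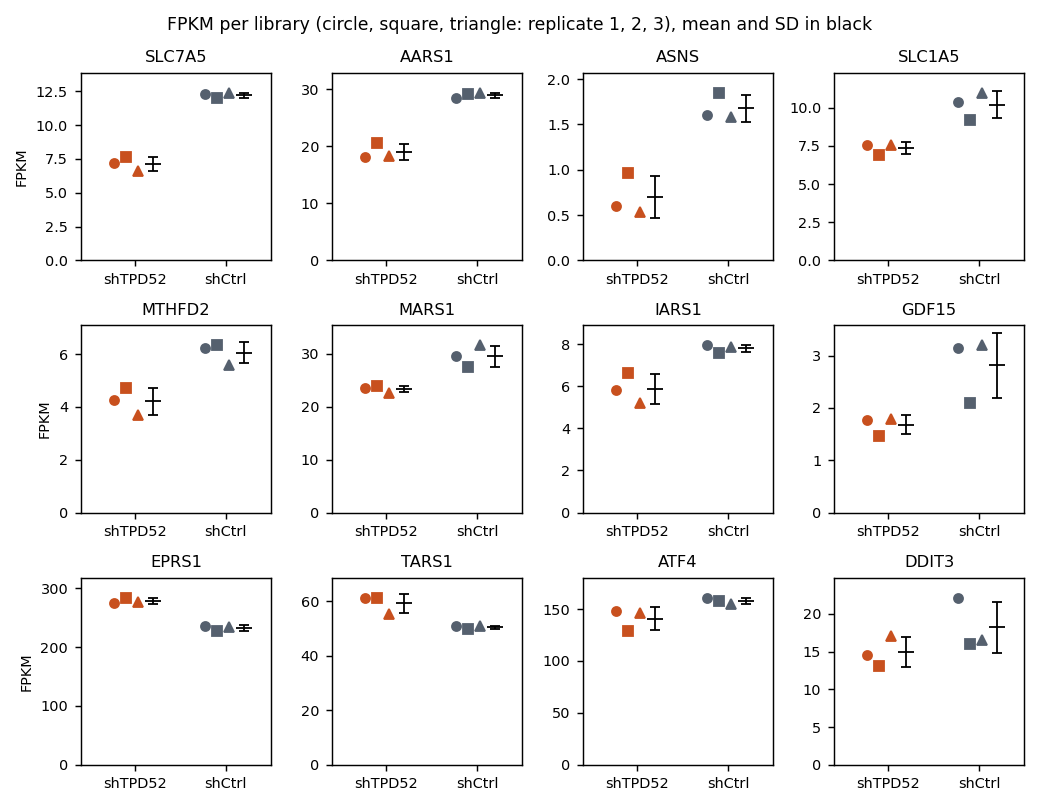
FPKM (y axes, each from 0) in each library for the 9 genes past the threshold and for TARS1, ATF4 and DDIT3, shTPD52 on the left and shCtrl on the right, with the mean and SD of 3 libraries in black. The groups overlap in the panel of DDIT3 and in no other panel, and shTPD52 is higher in the panels of EPRS1 and TARS1.

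Of the 7 amino acid transporter genes 2 fell and 5 did not pass, beside 12.7% lower and 5.63% higher among all tested genes. SLC7A5 (LAT1, ENSG00000103257, GRCh38 chromosome 16, 87830023 to 87869488, minus strand) carries leucine and other large neutral amino acids. It was at 7.21, 7.62 and 6.61 FPKM in shTPD52, against 12.3, 12 and 12.4 FPKM in shCtrl. The groups were each tight and far apart. SLC7A5 fell by 0.73 log2 units (SE 0.086, adjusted limma p 0.00584), to 0.585 times the mean of shCtrl, the smallest p of the list. It passed in 14 of 15 alternatives and missed the threshold without shCtrl replicate 3. SLC3A2 (the CD98 heavy chain) holds SLC7A5 and the cystine carrier SLC7A11 at the cell surface. It was at 19.8, 14.7 and 17.4 FPKM in shTPD52, against 19.4, 18.7 and 19.6 FPKM in shCtrl. Its groups overlapped (log2 change -0.16, SE 0.11, adjusted limma p 0.313), and its sign turned after the length and GC correction. The ratio of SLC7A5 to SLC3A2 FPKM was 0.365, 0.517 and 0.381 in shTPD52 replicates 1, 2 and 3, against 0.632, 0.641 and 0.63 in shCtrl replicates 1, 2 and 3. Each knockdown library had the lower ratio (two-sided exact permutation p = 0.1, the smallest that 3 against 3 allow). The ratio of SLC7A11 to SLC3A2 went the other way, with 0.106 ± 0.0138 in shTPD52 and 0.0801 ± 0.0194 in shCtrl and overlapping groups (two-sided exact permutation p = 0.2). The remaining ratio, ASNS to ASNSP1, was 0.476 ± 0.105 in shTPD52 and 1.13 ± 0.0508 in shCtrl (two-sided exact permutation p = 0.1). Adjusted over the 4 ratios computed in all, no permutation p was under 0.133. With 3 against 3 libraries no ratio could reach 0.05, so this test cannot decide. The numerators SLC7A5, MTHFD2 and ASNS had been called lower in the same libraries.

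SLC1A5 (ASCT2), a glutamine carrier, was at 7.59, 6.93 and 7.57 FPKM in shTPD52, against 10.4, 9.22 and 11 FPKM in shCtrl. SLC1A5 fell by 0.44 log2 units (SE 0.10, adjusted limma p 0.0236). With median-ratio scaling it was at -0.32 with an adjusted limma p of 0.0746 and missed the threshold. It also missed the threshold with quantile normalization (adjusted limma p 0.0726) and without a filter, and passed in 7 of 15 alternatives. In GENCODE release 29, 23.4% of its exon bases lie over a gene on the opposite strand (ENSG00000275719) with 0.115 FPKM in shTPD52 and 0.0266 FPKM in shCtrl. SLC7A1, the arginine and lysine carrier CAT1, was at 10.6, 15.4 and 9.42 FPKM in shTPD52, against 15.8, 17.3 and 16.2 FPKM in shCtrl. Replicates 1 and 3 of the knockdown were far below the controls and replicate 2 just below them (log2 change -0.49, SE 0.17, adjusted limma p 0.073). SLC1A4, a serine and alanine carrier, averaged 8.22 ± 0.822 FPKM in shTPD52 and 8.02 ± 0.248 FPKM in shCtrl. SLC38A2, the starvation-induced carrier SNAT2, averaged 12.9 ± 2.38 FPKM in shTPD52 and 13.8 ± 0.967 FPKM in shCtrl, and SLC7A11 averaged 1.83 ± 0.309 FPKM in shTPD52 and 1.54 ± 0.338 FPKM in shCtrl. These 3 genes had overlapping groups and did not pass, with an adjusted limma p of 0.836 for SLC1A4, 0.607 for SLC38A2 and 0.406 for SLC7A11. The sign of SLC38A2 turned with median-ratio scaling, with quantile normalization and after the length and GC correction. SLC1A4 passed as higher after that correction (0.25 with an adjusted limma p of 0.0324).

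Aminoacyl-tRNA synthetases attach each amino acid to its tRNA, and XPOT exports tRNA from the nucleus. Of these 12 genes 3 fell, 1 rose and 8 did not pass, against 12.7% lower and 5.63% higher among all tested genes. AARS1 (ENSG00000090861, GRCh38 chromosome 16, 70252295 to 70289543, minus strand) was at 18.1, 20.7 and 18.2 FPKM in shTPD52, against 28.5, 29.1 and 29.3 FPKM in shCtrl. The groups were far apart, and AARS1 fell by 0.60 log2 units (SE 0.081, adjusted limma p 0.00889), to 0.655 times the mean of shCtrl. It passed in 13 of 15 alternatives and missed the threshold without shCtrl replicate 3 and without shTPD52 replicate 1, with an adjusted limma p of at most 0.0636. MARS1 was at 23.4, 23.9 and 22.6 FPKM in shTPD52, against 29.5, 27.5 and 31.5 FPKM in shCtrl. MARS1 fell by 0.33 log2 units (SE 0.08, adjusted limma p 0.0309), and 5.05% of its exon bases lie over DDIT3. IARS1, the isoleucyl synthetase gene, was at 5.83, 6.63 and 5.19 FPKM in shTPD52, against 7.94, 7.6 and 7.87 FPKM in shCtrl. IARS1 fell by 0.39 log2 units (SE 0.10, adjusted limma p 0.0415). After the length and GC correction MARS1 was at -0.10 with an adjusted limma p of 0.337 and IARS1 at -0.21 with an adjusted limma p of 0.073. With median-ratio scaling both also missed the threshold (adjusted limma p 0.11 for MARS1 and 0.0576 for IARS1). Both missed it in limma without the trend and without a filter, and IARS1 with quantile normalization (adjusted limma p 0.0655). MARS1 passed in 6 and IARS1 in 5 of 15 alternatives.

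EPRS1 stood apart by its level. EPRS1 (ENSG00000136628, GRCh38 chromosome 1, 219968601 to 220046658, minus strand) was at 274, 284 and 276 FPKM in shTPD52, against 236, 228 and 234 FPKM in shCtrl. The other synthetase genes of the list averaged between 2.2 FPKM (CARS1) and 59.2 FPKM (TARS1) in shTPD52, and between 2.55 FPKM (CARS1) and 55.8 FPKM (SARS1) in shCtrl. EPRS1 rose by 0.26 log2 units (SE 0.068, adjusted limma p 0.0384), and its groups did not overlap. With median-ratio scaling it was at 0.38 with an adjusted limma p of 0.0286, and after the length and GC correction at 0.36 with an adjusted limma p of 0.0351. Among other settings, it missed the threshold with quantile normalization, at 0.02 with an adjusted limma p of 0.882, in limma without the trend, without a filter, and when any library but shTPD52 replicate 2 was left out. TARS1, the threonyl synthetase gene whose core lies at its start, was at 61.1, 61.3 and 55.3 FPKM in shTPD52, against 50.8, 49.9 and 50.9 FPKM in shCtrl. All 3 knockdown libraries were higher without passing (log2 change 0.23, SE 0.074, adjusted limma p 0.0676). TARS1 passed with median-ratio scaling, at 0.35 with an adjusted limma p of 0.0238, and after the length and GC correction, at 0.35 with an adjusted limma p of 0.0213.

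The 6 remaining synthetase genes and XPOT did not pass. SARS1 averaged 47.3 ± 1.66 FPKM in shTPD52 and 55.8 ± 1.69 FPKM in shCtrl without overlap (log2 change -0.24, SE 0.071, adjusted limma p 0.0539). It passed as lower with quantile normalization (-0.28 with an adjusted limma p of 0.0339) and with a filter of 5 FPKM (adjusted limma p 0.0464). YARS1 averaged 14.3 ± 0.715 FPKM in shTPD52 and 16.9 ± 0.605 FPKM in shCtrl and CARS1 averaged 2.2 ± 0.116 FPKM in shTPD52 and 2.55 ± 0.0963 FPKM in shCtrl, also without overlap (adjusted limma p 0.0757 for YARS1 and 0.242 for CARS1). The signs of both turned after the length and GC correction. NARS1 was at 37.7, 49.7 and 36.7 FPKM in shTPD52, against 47.2, 53.4 and 49.1 FPKM in shCtrl. XPOT was at 19.4, 26.8 and 17 FPKM in shTPD52, against 25.7, 27.7 and 24.4 FPKM in shCtrl. In both genes shTPD52 replicate 2 lay inside the control range and replicates 1 and 3 below it (adjusted limma p 0.137 for NARS1 and 0.174 for XPOT). GARS1 averaged 8.69 ± 0.837 FPKM in shTPD52 and 8.16 ± 0.695 FPKM in shCtrl and WARS1 averaged 14.5 ± 1.08 FPKM in shTPD52 and 14.2 ± 0.294 FPKM in shCtrl, with overlapping groups (adjusted limma p 0.573 for GARS1 and 0.843 for WARS1).

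By their medians, the knockdown libraries differed more over all tested genes than over the listed ones. The median over the 38 tested genes of log2(FPKM + 0.5) minus the shCtrl mean was -0.15, -0.19 and -0.21 in shTPD52 replicates 1, 2 and 3, while over all tested genes it was -0.10, -0.032 and -0.18. Below the whole control range were 25, 28 and 27 of the 38 genes in replicates 1, 2 and 3, against 50.3%, 39.5% and 57.2% of all tested genes. Above it were 8, 5 and 6 of the 38, against 29%, 30% and 25.7% of all tested genes. Without shTPD52 replicate 2, 17 of the 38 genes passed as lower and 2 as higher (44.7% and 5.26%), against 32.9% and 12.6% of all tested genes. The added genes were ATF3, CEBPG, PSAT1, ALDH18A1, SLC7A1, SARS1, NARS1, YARS1 and XPOT as lower and TARS1 as higher. SLC7A1 was then at -0.69 on the log2 scale with an adjusted limma p of 0.00159. Leaving out any other single library left between 0 and 3 of the 38 genes lower and 0 higher. Calls were also few over all 12782 tested genes in the same fits. There between 39 and 575 genes were lower and between 48 and 322 higher. MTHFD2, SLC1A5, MARS1, IARS1 and EPRS1 passed in 1 of these 6 fits, that without shTPD52 replicate 2. GDF15 passed in 2, without shTPD52 replicate 2 and without shCtrl replicate 2, and ASNS in 2, without shTPD52 replicate 2 and without shTPD52 replicate 3.

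**Figure D3:**
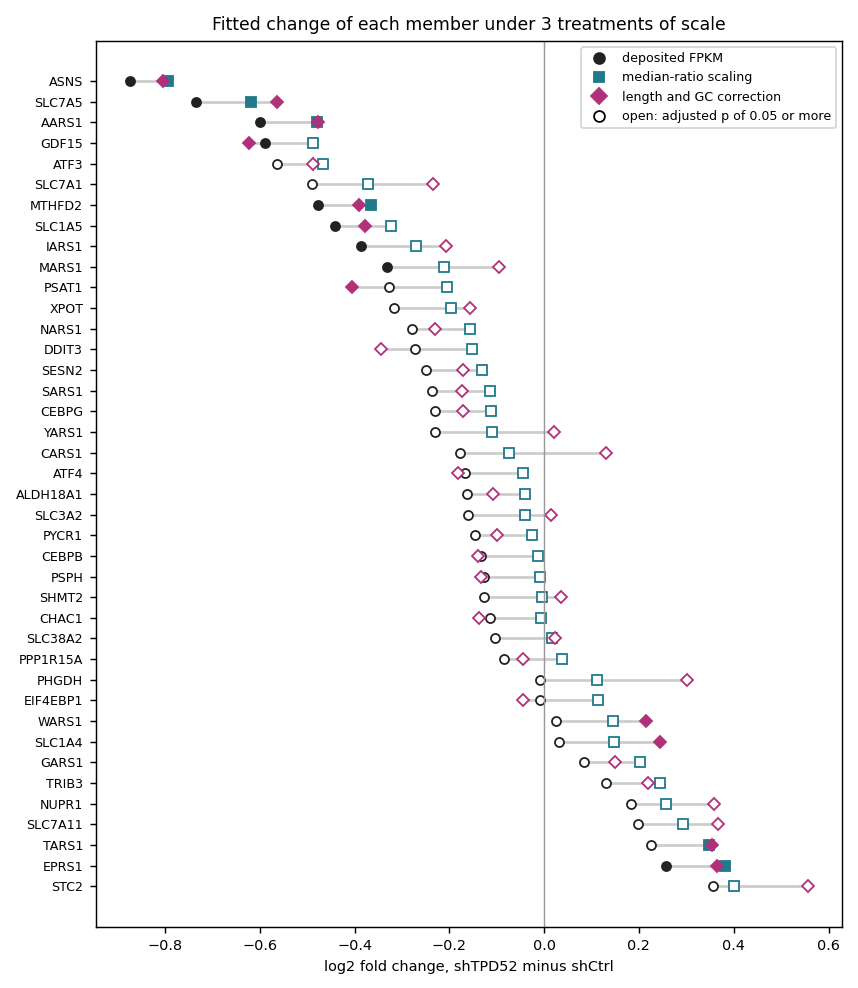
Fitted log2 fold change of shTPD52 minus shCtrl (x axis) of each of the 40 genes from the deposited FPKM (circles), with median-ratio scaling (squares) and after the length and GC correction (diamonds), where filled symbols have an adjusted p under 0.05. ASNS, SLC7A5, AARS1 and MTHFD2 are filled and negative under all 3, and EPRS1 is filled and positive under all 3.

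Gene length and scaling moved with several of these calls. The median log2 fold change was 0.088 for all tested genes with up to 2000 exon bases and -0.28 for those over 8000 bases, so long genes were lower as a class. The 12 listed genes between 2000 and 4000 bases had a median of -0.16 (-0.0058 for all genes of that length), and the 12 between 4000 and 6000 bases had -0.26 (-0.13 for all). The 7 between 6000 and 8000 bases had -0.32 (-0.21 for all), and the 3 of up to 2000 bases had -0.13 (0.088 for all). The 4 over 8000 bases were also negative but less so than their class, with -0.093 (-0.28 for all). Median-ratio scaling moved the median of all tested genes to 0.00054. It left ASNS, SLC7A5, AARS1 and MTHFD2 lower and EPRS1 and TARS1 higher, which is 10.5% and 5.26% of the list, against 8.12% and 8.47% of all tested genes. After removal of each library's trend on length and GC content, ASNS, SLC7A5, AARS1, GDF15, MTHFD2, SLC1A5 and PSAT1 were lower and EPRS1, TARS1, SLC1A4 and WARS1 higher. That is 18.4% and 10.5% of the list, against 9.98% and 10.1% of all tested genes.

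Other genes of the pathway, outside the 40, were read from the same fit, in which 12.7% of all tested genes were lower and 5.63% higher. Of 12 other cytosolic synthetase and scaffold genes 2 rose and 10 did not pass, with a median log2 fold change of 0.12. With median-ratio scaling 4 of the 12 were higher and 0 lower, against 8.47% and 8.12% of all tested genes, and the median was 0.24. RARS1 averaged 19.3 ± 1.32 FPKM in shTPD52 and 15.3 ± 0.606 FPKM in shCtrl and rose by 0.33 log2 units (SE 0.084, adjusted limma p 0.0352). Of 16 tested mitochondrial synthetase genes 14 did not pass. RARS2 rose by 0.42 log2 units (SE 0.10, adjusted limma p 0.0294), and TARS2 fell by 0.33 log2 units (SE 0.07, adjusted limma p 0.0225). RARS1 and RARS2 missed the threshold after the length and GC correction (adjusted limma p 0.055 and 0.0557), and TARS2 missed it with median-ratio scaling (adjusted limma p 0.0839). After the length and GC correction 4 of 16 mitochondrial synthetase genes were lower and 1 higher, against 9.98% and 10.1% of all tested genes. With median-ratio scaling 0 were lower and 1 higher, against 8.12% and 8.47%.

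Upstream of ATF4, 2 of 17 tested genes for eIF2 alpha kinases, eIF2, eIF2B and the phosphatase fell (11.8%, against 12.7% of all tested genes) and 15 did not pass. Once length and GC were corrected for, 0 of the 17 passed as lower and 2 as higher, against 9.98% and 10.1% of all tested genes. The median of the 17 was then 0.081, against -0.072 without the correction. These 2 were not the genes that fell but EIF2S1 (log2 change 0.27, adjusted limma p 0.0302) and EIF2B4 (log2 change 0.24, adjusted limma p 0.0373). GCN1, which activates the amino acid sensor GCN2 on the ribosome, averaged 9.23 ± 1.67 FPKM in shTPD52 and 13.4 ± 1.04 FPKM in shCtrl and fell by 0.53 log2 units (SE 0.13, adjusted limma p 0.0323). EIF2AK1, the haem-regulated kinase, averaged 39.97 ± 2.63 FPKM in shTPD52 and 49.4 ± 1.61 FPKM in shCtrl and fell by 0.30 log2 units (SE 0.078, adjusted limma p 0.0364). After the length and GC correction neither passed (adjusted limma p 0.117 for GCN1 and 0.0918 for EIF2AK1), and with median-ratio scaling EIF2AK1 missed the threshold too (adjusted limma p 0.119). Of 27 tested further genes reported as ATF4 targets 6 fell, 2 rose and 19 did not pass, with a median log2 fold change of -0.20. That is 22.2% lower and 7.41% higher, against 12.7% and 5.63% of all tested genes. After the length and GC correction 4 of the 27 were lower and 4 higher with a median of -0.019, against 9.98% and 10.1% of all tested genes. With median-ratio scaling 5 of the 27 were lower and 4 higher, against 8.12% and 8.47% of all tested genes. TRIB1, a pseudokinase related to TRIB3, averaged 4.05 ± 1.36 FPKM in shTPD52 and 9.75 ± 0.651 FPKM in shCtrl and fell by 1.21 log2 units (SE 0.19, adjusted limma p 0.0117). VEGFA, a growth factor gene for blood vessels, averaged 11.8 ± 2.21 FPKM in shTPD52 and 18.4 ± 0.838 FPKM in shCtrl and fell by 0.64 log2 units (SE 0.13, adjusted limma p 0.0202). SLC43A1, another carrier of large neutral amino acids, fell by 0.48 log2 units (SE 0.11, adjusted limma p 0.0244), and GPT2, the mitochondrial alanine aminotransferase, fell by 0.53 log2 units (SE 0.12, adjusted limma p 0.0247). VEGFA and GPT2 missed the threshold after the length and GC correction (adjusted limma p 0.0734 and 0.071). The genes that rose, named after their values were seen, were the transcription factor gene ATF5 (log2 change 0.38, adjusted limma p 0.0344) and the ER degradation gene HERPUD1 (log2 change 0.27, adjusted limma p 0.0344).

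**Figure D4:**
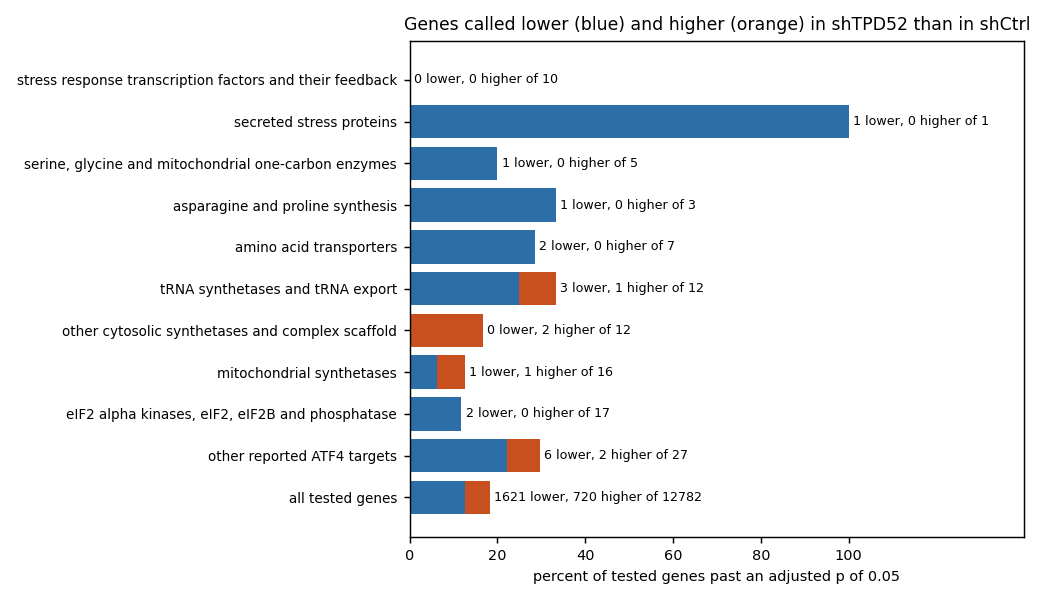
Percent of tested genes with an adjusted p under 0.05 (x axis), lower in shTPD52 than in shCtrl (blue) and higher (orange), for the 6 role groups of the list, 4 further lists of the pathway and all tested genes, with counts beside the bars. None of the 10 tested factor and feedback genes passed, and the 2 calls among other cytosolic synthetases are both higher.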

How the data were processed

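Paired-end RNA-seq libraries of 3 shTPD52 and 3 shCtrl samples were compared, grouped and numbered by their titles. HISAT2 2.2.1, featureCounts 2.0.3 and GRCh38 (hg38) are listed, without roles, in the submitters' processing notes. The sources used here state no annotation or strand setting. The deposited values are FPKM computed by the authors, 1 column per library. FPKM are relative to each library's total, so a larger share of some RNAs lowers the values of others.

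Symbols, coordinates and exon lengths came from the gene name table and GENCODE release 29 on GRCh38, and promoters from RefSeq. Library totals are the read numbers at which low FPKM times length become whole, which 66.36% to 67.95% of low values did within 0.02 reads. Odd numbers made up 26% to 29.41% of the counts from 1 to 20, so independent fragments may be fewer. Genes averaging 1 FPKM or more were tested with limma 3.58.1 in R 4.3.3 (moderated two-sided test, intensity trend) on log2(FPKM + 0.5), without further scaling. NUPR1, STC2 and TPD52, under the filter, were added to a second fit. All 40 genes, TPD52 and up to 4 passing genes of each further list were named by rule, except 1 gene that is not reported here. The genes, lists and tests were chosen with earlier results of these data known. Alternatives were pseudocounts of 0.1 and 1, no filter or one of 5 FPKM, median-ratio or quantile scaling, no trend in limma, the replicate number as a block, a loess correction for length and GC content (span 0.3, available for 99.4% of tested genes) and leaving out each library. The scripts were tested on simulated data.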

Additional observations from a re-analysis of the deposited data

How the results depend on the processing

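Over 15 alternatives, 501 of 600 fitted changes of the 40 genes kept their direction and their side of the threshold, 57 lost a call, 21 gained one and 21 turned their sign, all of genes that did not pass. Genes called lower numbered 8 as reported, 2 without a filter and 4 with median-ratio scaling, and from 0 to 17 on leaving out 1 library. Genes called higher numbered 1 as reported, 0 without a filter, with quantile normalization, in limma without the trend and with the replicate block, 2 with median-ratio scaling, 4 once length and GC were corrected for, and from 0 to 2 on leaving out 1 library. Of all tested genes 2341 passed as reported, 531 without a filter and from 87 (without shCtrl replicate 3) to 5825 (without shTPD52 replicate 2) on leaving out 1 library. The split was 720 higher and 1621 lower as reported, 1083 and 1038 under median-ratio scaling, 1152 and 1188 under quantile normalization, and 1294 and 1276 once length and GC were corrected for. The median log2 fold change of the tested list, -0.17 as reported, was -0.059 under median-ratio scaling, -0.13 under quantile normalization, -0.14 once length and GC were corrected for, and from -0.22 to -0.17 on leaving out 1 library. TPD52 lost its call without a filter (-0.65, adjusted limma p 0.067), with the length and GC correction (-0.48, adjusted limma p 0.0829) and in 5 of 6 fits that left out a library (-0.70 to -0.60 over all 6). The promoter share was 30.3% with TGATGCAA. Of 70 tested genes in the further lists, 14 were called as reported (5 higher, 9 lower). That is 7.14% higher and 12.9% lower, against 5.63% and 12.7% of all tested genes. Calls numbered 17 under either median-ratio scaling (11 higher, 6 lower) or the length and GC correction (9 higher, 8 lower). Of all tested genes 8.47% were then higher and 8.12% lower under median-ratio scaling. Under the length and GC correction these shares were 10.1% and 9.98%. The TGATGCAA search and both alternatives for the further lists were chosen after seeing the data. For these changes the cause was not tested.

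Signs turned as follows. With median-ratio scaling PPP1R15A was at 0.037, EIF4EBP1 at 0.11, PHGDH at 0.11 and SLC38A2 at 0.016. With quantile normalization CHAC1 was at 0.031, PHGDH at 0.0081 and SLC38A2 at 0.0039. After the length and GC correction PHGDH was at 0.30, SHMT2 at 0.036, SLC3A2 at 0.014, SLC38A2 at 0.023, YARS1 at 0.020 and CARS1 at 0.13. On leaving out 1 library the range was -0.24 to 0.019 for CHAC1, -0.12 to 0.11 for EIF4EBP1, -0.059 to 0.065 for PHGDH, -0.038 to 0.098 for SLC1A4, -0.21 to 0.047 for SLC38A2 and -0.033 to 0.062 for WARS1.

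Replicate numbers are shared between the groups, but the deviations of same-numbered libraries from their group means correlated at 0.045, 0.25 and 0.022 for numbers 1, 2 and 3, and shTPD52 replicate 3 correlated best with shCtrl replicate 1 (0.28). With the replicate block 10 of the 38 tested genes of the list were lower and 0 higher. Of all 12782 tested genes 3064 were called with that block, 2158 as lower and 906 as higher. In that fit PSAT1 (adjusted limma p 0.0477) and SLC7A1 (0.0309) passed as lower and EPRS1 (0.0659) missed the threshold. Depth limits STC2, ASNS, GDF15, NUPR1, CHAC1 and ATF3 most, each with about 371 reads or fewer in every library.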
